A study of Mus musculus with 3 samples.

Results

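The genes described here build and supervise the mitotic spindle. They are 44 mouse genes that encode mitotic cyclins and kinases, spindle checkpoint proteins, kinetochore and centrosome components, spindle motors and cytokinesis factors. They were picked by name: every non-control spot whose deposited gene name was 1 of the 44 belonged to the set. All 44 were on the array, through 65 of its probes, out of 30458 gene names. Of the 44, 41 could be tested, beside 15427 genes tested in all. Aurkb, Sass6 and Tacc3 could not, and their values are given with their groups.

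The study compared embryoid bodies, aggregates in which embryonic stem cells differentiate, of 2 genotypes. One genotype was labelled wildtype control. The other was labelled Dido3deltaCT mutant and, per the series' design text, carries a Dido3 protein truncated at its C terminus. Dido3 is the long protein of the Dido1 gene. Embryoid bodies of both genotypes were cultured in parallel to day 10 in low attachment plates, floating in medium without LIF, the cytokine that keeps mouse stem cells undifferentiated. There were 3 samples of each genotype, called biological replicates in the labels. The labels name no line, clone or animal, so p-values measure the spread between these samples only. RNA of each mutant sample was amplified and hybridised with that of a wild type sample on a two-colour array, 3 arrays in all, on 1 slide. The mutant RNA carried the dye Cy3 in replicates 1 and 3 and the dye Cy5 in replicate 2. The question put to the arrays is how transcript levels of the genotypes differ. In such bulk RNA, fewer cells of a type and less of a transcript per cell cannot be told apart.

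As background, a cell enters mitosis when Cdk1 bound to a mitotic cyclin becomes active. Centrosomes then separate and nucleate microtubules, kinetochores on the centromeres capture them, and the spindle assembly checkpoint holds the cell until every kinetochore is attached. The anaphase-promoting complex then degrades securin and the cyclins, separase opens cohesin, and the central spindle guides cytokinesis. Most of these genes are transcribed in the G2 and M phases under shared control, and their transcripts are abundant in dividing stem cells and fall when cells leave the cycle.

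Of the non-control spots, 46.5% to 62.5% were well above background for mutant RNA and 48.5% to 74.4% for wild type RNA. Ratios of all genes correlated at 0.88 between replicates 1 and 3, which share their dye orientation, and at 0.15 and 0.18 between replicate 2 and these. The targeted gene, Dido1, had 4 tested probes. On 3 of them the mean log2 ratio of mutant over wild type was 1.74, 1.12 and 1.36, and on the other it was −1.92. Which probes lie in the truncated part is not given in the sources used here, so this does not check the labels.

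No tested mitotic gene passed the test for a difference between the genotypes. The test was limma's moderated test of the mean log2 ratio of mutant over wild type against 0, two-sided, at an adjusted p of 0.05. Of the 41 genes, 0 were called higher, where 0.207% of all genes were, and 0 were called lower, where 0.0907% were. At an unadjusted p under 0.05 the limma test picked 1 mitotic gene, Bub1, while 22.7% of all genes met that bound. The mean ratios of the 41 genes ran from −0.53 in Mki67 to 1.79 in Cdk1, with a median of 0.32 against 0.035 over all genes. On single arrays the median of the 41 genes was 0.23, −0.022 and 0.36 in replicates 1, 2 and 3, and that of all genes 0.015, −0.028 and 0.035. So the median of the mitotic genes lay above that of all genes on both arrays with the mutant in Cy3 and beside it on the array with the mutant in Cy5. Ratios above 0 were found for 73.2%, 46.3% and 75.6% of the 41 genes on the 3 arrays, against 50.6%, 48.7% and 51.6% of all genes. Centring each array on its median in place of the loess fit moved the median over all genes to −0.22 and that of the mitotic genes to 0.020.

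Few mitotic genes had mean ratios far from 0. A mean log2 ratio of at least 1 was found for 3 of them, Cdk1, Bub1 and Cep192 (7.32%, against 9.55% of all genes), and a mean of −1 or lower for none (against 7.12%). The ratio was above 0 on all 3 arrays in 13 genes (31.7%, against 21.7% of all genes): Bub1, Aurka, Plk1, Sgol1, Pcnt, Ccnb1, Mad1l1, Nek2, Top2a, Kif20a, Cdc20, Bub1b and Kif11. The 3 genes below 0 on all arrays, Mki67, Nuf2 and Cep152, were 7.32% of the set, against 22.7% of all genes. In 18 genes (43.9%, against 39.9%) replicate 2 was opposite in sign to replicates 1 and 3.

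**Figure D1:**
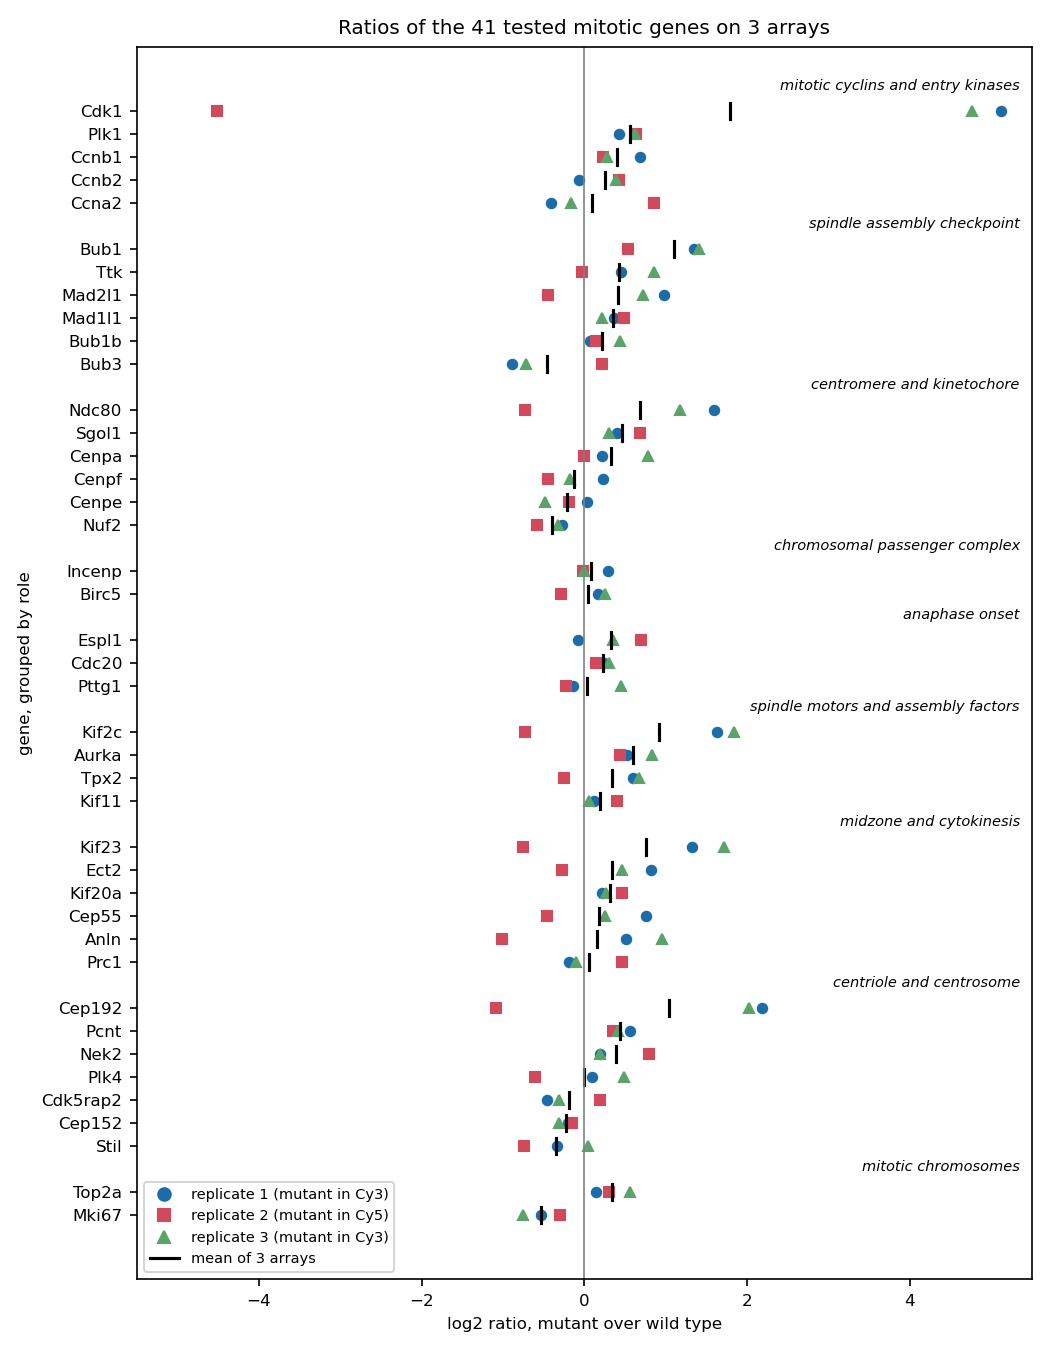
Log2 ratio of mutant over wild type (horizontal axis) for the 41 tested mitotic genes (vertical axis, grouped by role), with 1 symbol for each array and a black bar for the mean of the 3 arrays. Most points lie within 1 log2 unit of 0, the red squares of replicate 2 often lie on the other side of 0 from replicates 1 and 3, and Cdk1 spans from −4.52 to 5.12.

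The promoters of these genes are shown for what they share. NF-Y, which binds CCAAT boxes, and the MuvB complexes, which bind the cell cycle homology region, TTTGAA, through Lin54, act on many genes of G2 and M phase. RefSeq promoter windows on GRCm38.p6, from 250 bases before to 50 bases after a gene's start, were matched for 38 of the 44 genes. The letters CCAAT were found on either strand in 25 of the 38 genes (65.8%), against 41.1% of all 27025 genes with such a window. A gene was counted where any of its windows held the letters. TTTGAA was found on either strand in 23 of the 38 (60.5%), against 20.2% of all genes. Neither motif contains the other. The tested genes with CCAAT had a median log2 ratio of 0.33 (25 genes) and those without it 0.15 (11 genes). For TTTGAA these medians were 0.29 (22 genes) and 0.20 (14 genes). A match is a description of letters and not a bound site. The 150 bases before the start are printed, 5′ to 3′ on the gene's strand, for Bub1, Aurka, Plk1 and Mki67, the tested genes of smallest p, and for the mitotic kinase Cdk1 and its partner Ccnb1. Capitals mark either motif on either strand. The windows lie at chr2:127831860-127832009 (Bub1, minus strand), chr2:172370571-172370720 (Aurka, minus), chr7:122159285-122159434 (Plk1, plus), chr7:135716380-135716529 (Mki67, minus), chr10:69352913-69353062 (Cdk1, minus) and chr13:100786487-100786636 (Ccnb1, minus).
Bub1 promoter: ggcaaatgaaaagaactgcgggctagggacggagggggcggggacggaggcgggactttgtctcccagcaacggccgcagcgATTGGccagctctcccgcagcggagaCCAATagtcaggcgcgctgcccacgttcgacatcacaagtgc
Aurka promoter: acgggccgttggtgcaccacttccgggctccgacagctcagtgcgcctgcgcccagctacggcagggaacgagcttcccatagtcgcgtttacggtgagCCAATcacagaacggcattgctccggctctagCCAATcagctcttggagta
Plk1 promoter: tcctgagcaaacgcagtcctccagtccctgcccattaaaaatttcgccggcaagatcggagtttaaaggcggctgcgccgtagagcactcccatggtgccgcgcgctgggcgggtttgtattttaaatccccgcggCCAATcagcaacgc
Mki67 promoter: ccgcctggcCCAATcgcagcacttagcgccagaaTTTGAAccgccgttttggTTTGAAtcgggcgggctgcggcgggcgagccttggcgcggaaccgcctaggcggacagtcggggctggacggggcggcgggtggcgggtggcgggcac
Cdk1 promoter: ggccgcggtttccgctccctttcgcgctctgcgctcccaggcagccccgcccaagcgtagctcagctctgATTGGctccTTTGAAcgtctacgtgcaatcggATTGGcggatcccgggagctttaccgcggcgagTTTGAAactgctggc
Ccnb1 promoter: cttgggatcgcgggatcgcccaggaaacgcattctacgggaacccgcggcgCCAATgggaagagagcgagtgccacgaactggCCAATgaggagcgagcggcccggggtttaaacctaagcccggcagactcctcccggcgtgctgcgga
Bub1, Aurka, Plk1 and Ccnb1 had CCAAT alone in these 150 bases, while Mki67 and Cdk1 had both motifs. Aurka and Plk1 also had TTTGAA past the printed stretch, from bases 33 and 31 after the start, and count among the genes with it. Bub1, Aurka and Plk1 had ratios above 0 on every array, and Mki67 had ratios below 0 on every array. All 4 carried at least 1 CCAAT box within the printed 150 bases.

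Among the cyclins and kinases of mitotic entry, the polo-like kinase Plk1, which drives centrosome maturation and spindle assembly, had the smallest p. Plk1 had a normalized log2 intensity of 11.78, 12.65 and 12.09 in the mutant samples of replicates 1, 2 and 3 and of 11.36, 12.02 and 11.47 in the wild type samples. Each mutant sample was brighter than the wild type sample on its own array, although the genotypes' values overlapped between arrays. Its log2 ratios were 0.43, 0.63 and 0.62, a mean of 0.56 ± 0.23 (SE, n = 3; limma adjusted p = 0.243). Over 14 other processing settings the mean ratio of Plk1 ran from 0.25 to 0.63. Its limma adjusted p ran from 0.0448 with a dye term to 0.935 without replicate 3.

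Ccnb1, the B-type cyclin that activates Cdk1, had log2 intensities of 14.97, 14.83 and 15.00 in the mutant and 14.29, 14.60 and 14.73 in the wild type samples, so that the 3 mutant values lay above the 3 wild type values. Its ratios averaged 0.40 ± 0.25 (SE, n = 3; limma adjusted p = 0.403). A pair of further tested Ccnb1 probes gave ratios of 0.42, −0.18 and 1.23 on the one and 0.39, 0.025 and 1.21 on the other, and on both the mutant and wild type values overlapped. Its relative Ccnb2 had ratios of −0.067, 0.43 and 0.39. Ccna2, the cyclin of S and G2 phase, read 13.19, 13.62 and 13.20 in the mutant and 13.59, 12.76 and 13.36 in the wild type samples. Its ratios of −0.41, 0.86 and −0.17 had a mean of 0.096 ± 0.34 (SE, n = 3; limma adjusted p = 0.889), and its only value above 0 came from replicate 2.

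Cdk1, the kinase that starts mitosis, had by far the widest values of the set. Its log2 intensities were 13.85, 9.07 and 12.13 in the mutant samples and 8.73, 13.58 and 7.37 in the wild type samples. The high values were those of the 3 samples labelled with Cy3, whichever the genotype, and the low values those of the 3 samples labelled with Cy5. The log2 ratios of 5.12, −4.52 and 4.76 averaged 1.79 ± 2.00 (SE, n = 3; limma adjusted p = 0.632). Splitting them by dye gave a genotype part of 0.21, the mean of the 2 dye orientations, and a dye part of 4.73, the log2 ratio of Cy3 over Cy5. That dye part was the largest of the 15427 genes tested.

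Cdk1 was read by 3 probes. The probe tested lies at chr10:68801072-68801131 (mm9, minus strand), and its 60 bases hold 18.3% G or C. An overlapping probe shares 41 of those bases, has the same share of G or C and gave ratios of 2.69, −3.59 and 4.13, but it was well above background on only 2 mutant arrays and 1 wild type array. The remaining probe at chr10:68799513-68799572, with 45% G or C, gave ratios of 0.15, 0.51 and 0.11 and was well above background on 2 arrays in each genotype. The sequences set these probes side by side, 30 bases each, with G and C in capitals. The first comes from the stretch that both overlapping probes hold, the other from the 5′ end of the remaining probe.
Cdk1 shared stretch: aaCttaattaaCatGtaaatattattCCat
Cdk1 remaining probe: ataCaCtaaaaatttGGGtaGCCaGGaGGt
The AT-rich probes moved with the dye by several log2 units, and the remaining probe, which was dim, did not.

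The spindle assembly checkpoint held the gene of smallest p in the set, Bub1, a kinase that recruits checkpoint proteins and shugoshin to the centromere. Log2 intensity of Bub1 was 13.16, 12.70 and 12.98 in the mutant samples and 11.82, 12.17 and 11.57 in the wild type samples, so the lowest mutant sample was above the highest wild type sample. Its log2 ratios of 1.35, 0.54 and 1.40 averaged 1.10 ± 0.29 (SE, n = 3), with a 95% interval of 0.35 to 1.84 for this log2 mean, an unadjusted p of 0.0127 and an adjusted p of 0.119 by limma. The mean corresponds to a fold of 2.14. The Bub1 probe, at chr2:127626988-127627047 (mm9, minus strand), was printed on 10 spots of each array, which makes it the most repeated measurement of the set. The SD over its used spots was 0.120 on 9 spots, 0.231 on 10 and 0.0700 on 10 in replicates 1, 2 and 3, where spots are repeated measurements of the same samples. With a dye term the genotype part of Bub1 was 0.96 and passed the limma test (adjusted p = 0.0114), in a fit that called 15.9% of all genes higher. Over the 14 other settings its mean ratio stayed between 0.80 and 1.38. Its limma adjusted p ran from 0.00377 without replicate 2 to 0.730 without replicate 3.

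Bub3, the WD-repeat partner of Bub1 and BubR1, was the lowest checkpoint gene. Its log2 intensities were 12.49, 12.99 and 12.61 in the mutant and 13.37, 12.77 and 13.34 in the wild type samples, and its ratios of −0.89, 0.22 and −0.72 averaged −0.46 ± 0.32 (SE, n = 3; limma adjusted p = 0.442). Replicate 2 stood on the other side of 0 from the other arrays. Mad1l1, which anchors Mad2 at unattached kinetochores, read 9.62, 9.88 and 9.81 in the mutant and 9.26, 9.40 and 9.59 in the wild type samples, without overlap. The ratios of Mad1l1 averaged 0.36 ± 0.24 (SE, n = 3; limma adjusted p = 0.429), and over the 14 other settings the mean ran from −0.0043, with median centring, to 0.42.

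Mad2l1, the Mad2 protein that inhibits Cdc20, had ratios of 0.97, −0.45 and 0.73. It had a pair of further tested probes, with ratios of −0.35, 0.76 and −0.026 on the one and 0.16, 0.70 and 0.37 on the other. The 3 probes thus shared a mean above 0 (0.42, 0.13 and 0.41), but the probe of 35% G or C was low on replicate 2 and the others, of 45% and 41.7%, were high there. Ttk, the Mps1 kinase that starts the checkpoint signal, had ratios of 0.45, −0.034 and 0.86, and Bub1b, the BubR1 protein of the mitotic checkpoint complex, had ratios of 0.070, 0.14 and 0.44.

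Among the centromere and kinetochore genes, Sgol1, the shugoshin that protects centromeric cohesin, had the smallest p. Log2 intensity of Sgol1 was 12.35, 12.82 and 12.61 in the mutant and 11.94, 12.14 and 12.30 in the wild type samples, with all mutant values above all wild type values. Ratios were 0.40, 0.68 and 0.31, with a mean of 0.47 ± 0.24 (SE, n = 3; limma adjusted p = 0.325).

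Ndc80 and Nuf2 encode partners in the rod-shaped complex that binds microtubules at the kinetochore, and they were the highest and the lowest gene of this group. Ndc80 read 12.61, 10.87 and 11.81 in the mutant and 11.02, 11.60 and 10.63 in the wild type samples. Its ratios of 1.59, −0.73 and 1.18 averaged 0.68 ± 0.51 (SE, n = 3; limma adjusted p = 0.477) and split by dye orientation. Nuf2 read 10.38, 9.42 and 9.39 in the mutant and 10.65, 10.00 and 9.71 in the wild type samples, and was lower in the mutant on each array, with ratios of −0.28, −0.58 and −0.33 (mean −0.39 ± 0.24, SE, n = 3; limma adjusted p = 0.388). A further tested probe of Nuf2 gave −0.59, 0.69 and −0.51, so the sign on replicate 2 differed between its probes. Neither Ndc80 nor Nuf2 passed the test.

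Cenpa, the histone variant that marks the centromere, had ratios of 0.22, −0.0024 and 0.78. Cenpe, the kinesin that aligns chromosomes, had ratios of 0.035, −0.19 and −0.48. Those of Cenpf, a large outer kinetochore protein, were 0.23, −0.45 and −0.17, from a probe well above background on 2 mutant and 3 wild type arrays. The 6 kinetochore genes had a median ratio of 0.10.

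The chromosomal passenger complex corrects wrong attachments through the kinase Aurkb. The only Aurkb probe was well above background on only 2 arrays in each genotype and was not tested. The ratios of Aurkb were 2.86, −1.81 and 2.70, a dye part of 2.29 beside a genotype part of 0.49, from a probe with 20.0% G or C. Birc5, the survivin subunit, read 15.36, 14.75 and 15.17 in the mutant and 15.19, 15.04 and 14.92 in the wild type samples. Its ratios were 0.17, −0.29 and 0.25 (mean 0.045 ± 0.25, SE, n = 3; limma adjusted p = 0.935). A pair of further Birc5 probes gave −0.55, 0.19 and −0.16 on the one, of 45% G or C, and 1.06, −1.46 and 1.38 on the other, of 36.7%.

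Incenp, the scaffold of the complex, shows how far neighbouring probes could differ. The probe tested, at chr19:9946893-9946952 (mm9, minus strand), gave ratios of 0.28, −0.022 and −0.00088 (limma adjusted p = 0.854). The other tested probe, at chr19:9946878-9946937, shares 45 of its 60 bases and gave 1.17, −0.75 and 1.06. The sequences print the first 30 bases of the one and the last 30 of the other, and capitals mark the 15 bases that each has alone.
Incenp tested probe: AGGTTGAGCACTGATggctctgtaggcagt
Incenp other probe: agattgttacagttcAGTTGAATGACTTTT
The shift of 15 bases went with a dye part of 0.94 in place of 0.082, while the genotype parts were 0.18 and 0.060.

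At anaphase onset, Espl1, the separase that cleaves cohesin, was the highest gene. It read 7.86, 8.06 and 8.07 in the mutant and 7.94, 7.36 and 7.71 in the wild type samples, with ratios of −0.076, 0.70 and 0.36 (mean 0.33 ± 0.27, SE, n = 3; limma adjusted p = 0.521). Pttg1, the securin that holds separase inactive, was the lowest. It read 7.87, 9.22 and 8.82 in the mutant and 8.0, 9.45 and 8.36 in the wild type samples, and its ratios of −0.14, −0.22 and 0.46 had a mean of 0.032 ± 0.27 (SE, n = 3; limma adjusted p = 0.957). Both genes' values overlapped between genotypes. A further, brighter Pttg1 probe had ratios of 0.83 and −0.38 in replicates 1 and 2. It had no value left on replicate 3 and was not tested. Cdc20, the activator of the anaphase-promoting complex, was steady, with ratios of 0.24, 0.14 and 0.30.

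Of the spindle motors and assembly factors, Aurka, the kinase of spindle poles, had the smallest p. Log2 intensity of Aurka was 12.30, 12.51 and 12.94 in the mutant and 11.77, 12.07 and 12.10 in the wild type samples, so the 3 mutant values lay above the 3 wild type values. Aurka ratios of 0.53, 0.44 and 0.83 averaged 0.60 ± 0.24 (SE, n = 3; limma adjusted p = 0.230). Over the 14 other settings its mean ratio stayed between 0.30 and 0.68. Its limma adjusted p ran from 0.0337 without replicate 2 to 0.953 without replicate 3. Tpx2, which activates Aurka on microtubules, had ratios of 0.60, −0.25 and 0.67, and a further tested probe gave 0.32, −0.15 and 0.38. Tacc3, which stabilises the fibres to the kinetochores, read −1.05 and 0.11 in replicates 1 and 2, while its spot on replicate 3 carried an outlier mark, so the gene was not tested.

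Kif2c, the kinesin that removes microtubules from wrong attachments, was the highest of this group. It read 9.51, 8.32 and 10.76 in the mutant and 7.88, 9.05 and 8.92 in the wild type samples, with ratios of 1.63, −0.73 and 1.84 (mean 0.91 ± 0.57, SE, n = 3; limma adjusted p = 0.401). A further tested probe of Kif2c gave 0.37, 0.44 and 0.79, which share 1 sign. With the dye split off, the genotype parts of the pair were 0.50 and 0.51, and the dye parts 1.23 and 0.071. The first 30 bases of both probes are printed because they gave like genotype parts from unlike ratios; G and C are in capitals. They lie at chr4:116832728-116832787 and chr4:116832904-116832963 (mm9, minus strand), with 40.0% and 45% G or C over their 60 bases.
Kif2c tested probe: GaaaCGGCaCCaatGatGaCttCaaataaa
Kif2c further probe: tCCGaGatGaCaGatCaGCCaGaCtatGaC
Kif11, the kinesin that pushes spindle poles apart, was the lowest of the group. It read 11.11, 10.22 and 10.75 in the mutant and 10.99, 9.82 and 10.68 in the wild type samples, with ratios of 0.12, 0.40 and 0.063 (mean 0.20 ± 0.24, SE, n = 3; limma adjusted p = 0.664).

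**Figure D2:**
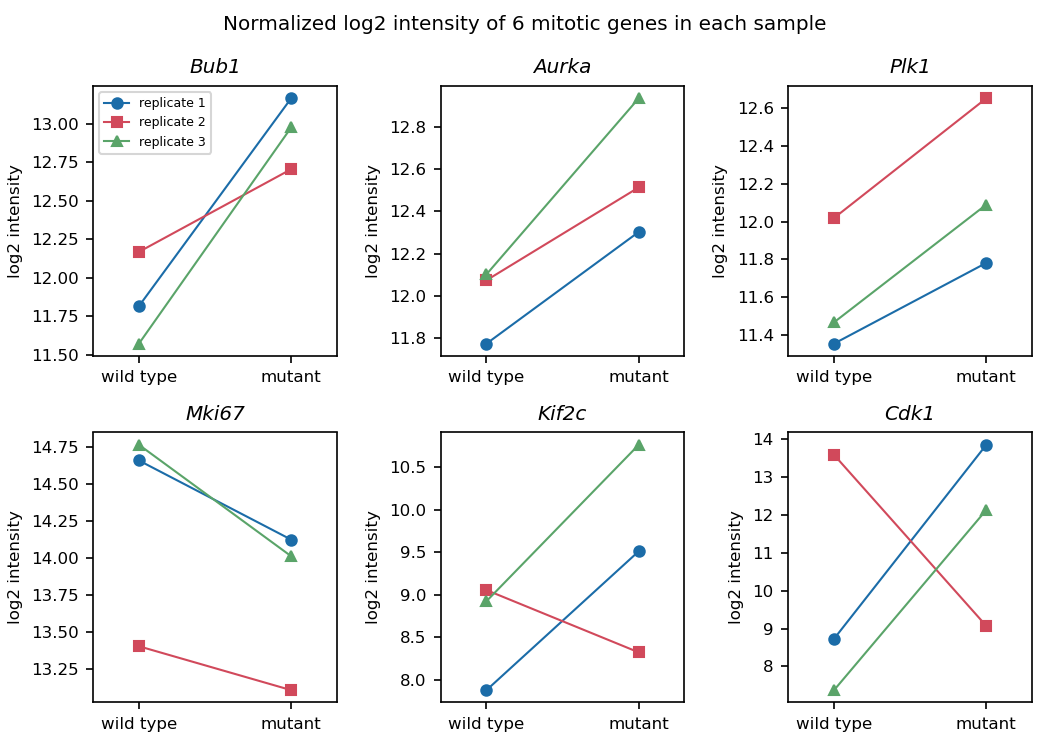
Normalized log2 intensity (vertical axis, with its own range in each panel) of 6 mitotic genes in the wild type and mutant samples, with the samples of 1 array joined by a line. Lines slope the same way on all arrays for Bub1, Aurka, Plk1 and Mki67, and replicate 2 slopes the other way for Kif2c and Cdk1.

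Replicate 2 had the other sign from replicates 1 and 3 in 39.9% of all genes. In the central spindle and cytokinesis group it did so in 5 of the 6 genes. The highest was Kif23, the kinesin of the centralspindlin complex, which read 10.42, 10.29 and 10.83 in the mutant and 9.09, 11.05 and 9.11 in the wild type samples. Its ratios of 1.33, −0.75 and 1.71 averaged 0.76 ± 0.53 (SE, n = 3; limma adjusted p = 0.452). The lowest was Prc1, which bundles the microtubules of the midzone. Prc1 read 14.34, 14.40 and 14.71 in the mutant and 14.53, 13.93 and 14.81 in the wild type samples, with ratios of −0.19, 0.46 and −0.11 (mean 0.054 ± 0.26, SE, n = 3; limma adjusted p = 0.924).

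Cep55, which brings the abscission machinery to the midbody, read 7.83, 7.79 and 8.01 in the mutant and 7.08, 8.25 and 7.75 in the wild type samples. Ratios were 0.76, −0.46 and 0.26 (mean 0.18 ± 0.32, SE, n = 3; limma adjusted p = 0.765), and a further tested probe gave −0.38, −0.074 and −0.13, with a mean of the other sign. Ect2, the exchange factor that activates RhoA at the equator, had ratios of 0.82, −0.27 and 0.47. Anln, the anillin scaffold of the contractile ring, had ratios of 0.51, −1.01 and 0.96. Kif20a, the kinesin that carries the passenger complex to the midzone, was the exception in the group, above 0 on every array with ratios of 0.22, 0.47 and 0.26.

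The centriole and centrosome genes centred on 0, with a median ratio of −0.0073 over 7 tested genes. Cep192, the scaffold that recruits Plk4 and Aurka, was the highest. It read 11.88, 10.67 and 12.39 in the mutant and 9.69, 11.75 and 10.37 in the wild type samples, with ratios of 2.19, −1.08 and 2.02 (mean 1.04 ± 0.71, SE, n = 3; limma adjusted p = 0.440). Like Cdk1, it was bright in the samples labelled with Cy3, with a dye part of 1.59 beside a genotype part of 0.51. Stil, which assembles the cartwheel of a new centriole with Sass6, was the lowest. It read 9.55, 9.01 and 9.34 in the mutant and 9.89, 9.75 and 9.30 in the wild type samples, with ratios of −0.34, −0.74 and 0.048 (mean −0.34 ± 0.27, SE, n = 3; limma adjusted p = 0.502). Sass6 itself gave −0.43, 0.72 and −0.36 and was not tested, since it was well above background on 2 arrays in each genotype.

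Pcnt, the pericentrin scaffold of the pericentriolar matrix, read 11.37, 10.49 and 10.76 in the mutant and 10.81, 10.15 and 10.35 in the wild type samples. It was the most even gene of this group above 0, with ratios of 0.56, 0.35 and 0.41 (mean 0.44 ± 0.23, SE, n = 3; limma adjusted p = 0.336). Cdk5rap2, which tethers the γ-tubulin ring complex to that matrix, read 10.02, 10.82 and 10.52 in the mutant and 10.48, 10.63 and 10.84 in the wild type samples. Its ratios were −0.46, 0.20 and −0.32 (mean −0.19 ± 0.26, SE, n = 3; limma adjusted p = 0.698), and a further tested probe gave 0.53, −0.089 and −0.15, again with a mean of the other sign. Nek2, the kinase that frees centrosomes from their linker, had ratios of 0.19, 0.79 and 0.20. Plk4, the kinase that starts centriole duplication, had ratios of 0.092, −0.60 and 0.49, and Cep152, which anchors Plk4, had −0.20, −0.16 and −0.32.

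Mki67, the Ki-67 protein that coats mitotic chromosomes and serves as a marker of dividing cells, was the lowest tested gene. It read 14.13, 13.11 and 14.01 in the mutant and 14.66, 13.40 and 14.77 in the wild type samples, lower in the mutant on each array, although the genotypes overlapped because both samples of replicate 2 were dimmer than the rest. Its ratios of −0.54, −0.30 and −0.75 averaged −0.53 ± 0.25 (SE, n = 3, limma adjusted p = 0.281). Over the 14 other settings the mean stayed between −0.81 and −0.38. Its limma adjusted p ran from 0.0360 without replicate 2 to 0.974 without replicate 3. A further tested probe of Mki67 gave −0.10, −0.61 and 0.0023. Top2a, the topoisomerase that untangles sister chromatids, had ratios of 0.14, 0.30 and 0.57. Both genes are common labels of proliferation, and their mean ratios had opposite signs. Neither passed the test.

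In all, the 3 mutant samples lay above the 3 wild type samples in 5 genes, Bub1, Aurka, Sgol1, Ccnb1 and Mad1l1, where 11.0% of all genes did so. They lay below in none, where 10.3% of all genes did. The other 36 genes overlapped, as did both further probes of Ccnb1. Further tested probes existed for 10 of the genes, 13 probes in all. The mean ratio of 10 of these probes had the sign of the probe used and that of 3 had the other sign. Those 3 belonged to Cep55, Cdk5rap2 and Birc5. The Cep55 and Cdk5rap2 probes were each well above background on 2 mutant and 3 wild type arrays, the Birc5 probe on 3 of each.

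Because the dyes were not swapped equally, each ratio was also split into a genotype part and a dye part. The dye part was the larger in 21 of the 41 genes (51.2%, against 47.9% of all genes). The genotype parts of the mitotic genes had a median size of 0.29 and reached 0.96 in Bub1, against a median size of 0.39 over all genes. With sign, the median genotype part was 0.21 over the mitotic genes and 0.023 over all genes. The dye parts had a median size of 0.25, against 0.36. Their signed median was 0.12 over the mitotic genes and −0.0093 over all genes. With a dye term in the fit, 2 mitotic genes were called higher by limma, Bub1 and Plk1 (15.9% of all genes were), and 0 lower (14.9% of all genes were). That fit takes its error from replicates 1 and 3 alone, with replicate 2 fixing the dye term. In it Plk1 had 0.58 (limma adjusted p = 0.0448), Aurka 0.56 (adjusted p = 0.0539) and Mki67 −0.47 (adjusted p = 0.0764).

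**Figure D3:**
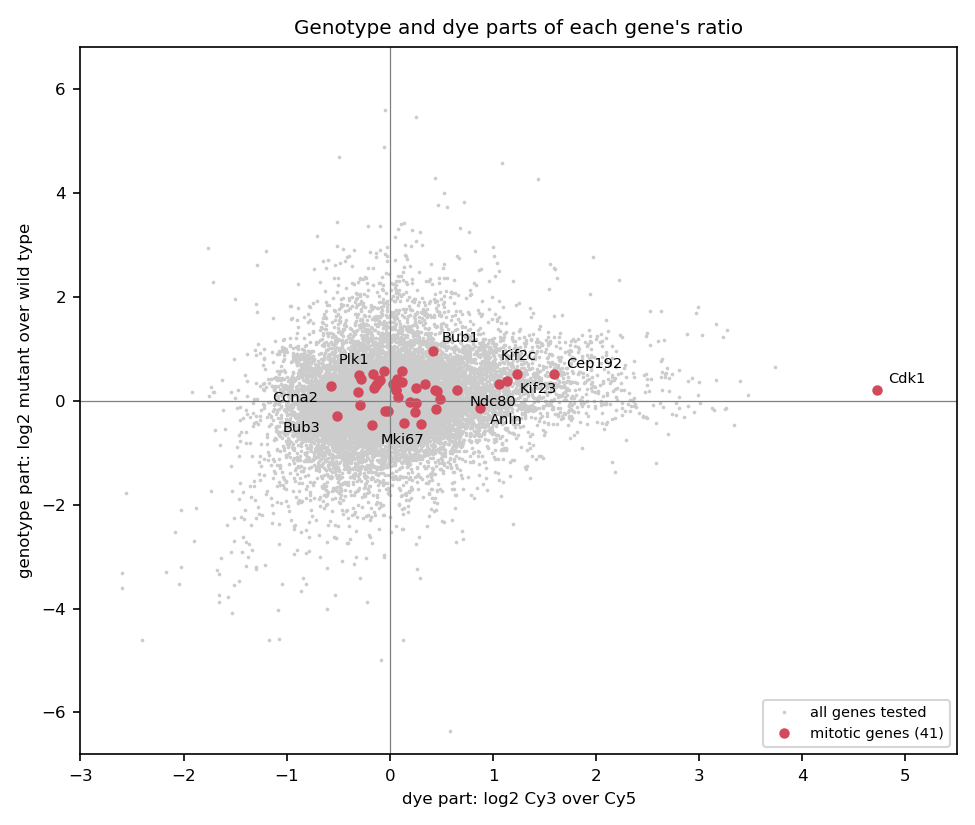
Dye part (horizontal axis, log2 Cy3 over Cy5) and genotype part (vertical axis, log2 mutant over wild type) of the ratio of each gene, with the 41 mitotic genes in red over all 15427 genes tested in grey. Red points stay within 0.96 of 0 on the vertical axis, and Cdk1 lies at a dye part of 4.73, farther right than any other gene.

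Without replicate 2 the fit holds only arrays with the mutant in Cy3, so that genotype and dye cannot be told apart. It called 12 mitotic genes higher, where 25.7% of all genes were, and 2 lower, where 21.7% were. Of these 14 genes, 11 had the other sign on replicate 2, and 3 had the same sign there, namely Bub1, Aurka and Mki67. The largest means without replicate 2 were 4.94 in Cdk1, 2.10 in Cep192, 1.74 in Kif2c, 1.52 in Kif23 and 1.38 in Ndc80 and in Bub1. The others called higher were Mad2l1, Anln, Aurka, Ttk, Ect2 and Tpx2, and those called lower were Bub3 and Mki67.

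The dye part was lower where probes held more G or C. Over the 41 mitotic genes it correlated with the share of G or C bases at r = −0.73, and at −0.51 over the 40 without Cdk1. Over all genes tested r was −0.43. These values describe probes that share the same 3 arrays and are given with no test. By class, the median dye part of all genes was 0.94 for probes under 35% G or C (339 genes), 0.15 from 35% to under 45% (9222 genes) and −0.26 at 45% or more (5866 genes). For the mitotic genes it was 4.73 in the lowest class, which held Cdk1 alone, 0.25 in the middle one (23 genes) and −0.054 in the highest (17 genes). The genotype part of the mitotic genes correlated with the share of G or C at −0.16.

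**Figure D4:**
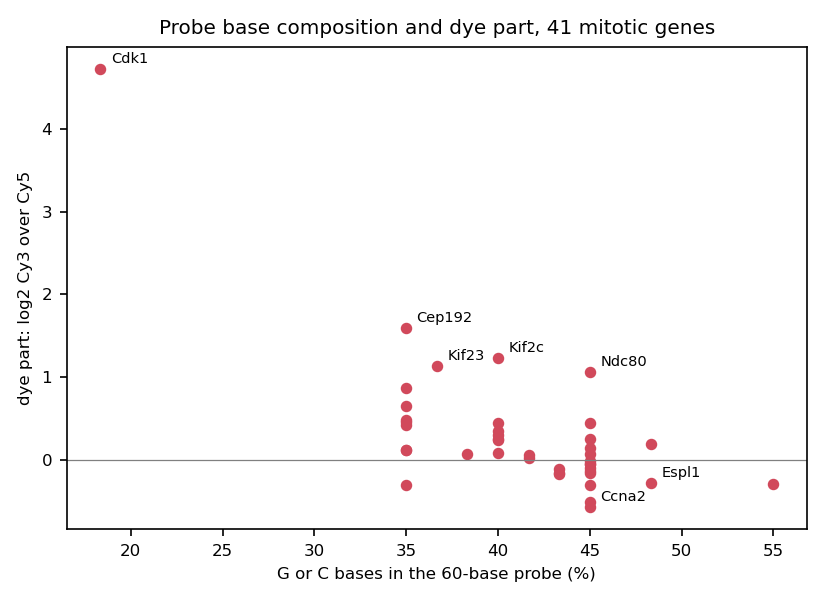
Share of G or C bases in the tested probe (horizontal axis, percent) and dye part of the log2 ratio (vertical axis, Cy3 over Cy5) for the 41 mitotic genes, 1 point each. Cdk1, at 18.3% G or C, stands alone at the top left, and the points from 45% upward lie mostly near or below 0, with Ndc80 above them.

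The main fit called 0.207% of all genes higher and 0.0907% lower. Other genes of the mitotic machinery, from lists that hold none of the 44, gave 0 calls. Their lists were centromere and kinetochore, spindle, centrosome, anaphase-promoting complex, condensin and cohesin, transcription factors and interphase cyclins. At an unadjusted limma p under 0.05 there were 16 of their 154 tested genes (10.4%), beside the 22.7% of all genes. Replicate 2 had the other sign in 39.9% of all genes and in 21 of 32 further centromere and kinetochore genes. These 32 had a median ratio of 0.049. Their extremes were Sgol2, the meiotic shugoshin, at 1.00 (SE 0.56; limma adjusted p = 0.360) and Zwint, which recruits the dynein adaptor complex, at −0.79 (SE 0.46; 0.374). Over 26 further spindle genes the median was 0.079, between the kinesin Kif2a at 0.65 (0.253) and the augmin subunit Haus5 at −2.03 (SE 0.35; adjusted p = 0.0653). The 29 further centrosome genes had a median of 0.040, from Ninl, a ninein-like microtubule anchor, at 1.58 down to the satellite protein Pcm1 at −0.97. The 14 further genes of the anaphase-promoting complex had a median of −0.14, with the ubiquitin-conjugating enzyme Ube2s at 0.72 and the subunit Cdc26 at −1.07. The 21 condensin and cohesin genes had a median of 0.12, between the cohesin acetyltransferase Esco2 at 1.32 and the cohesin subunit Stag2 at −0.58. Replicate 2 had the other sign in 11 of the further spindle genes and 15 of the further centrosome genes. It did so in 4 of the further anaphase-promoting complex genes and 10 of the condensin and cohesin genes.

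Among upstream regulators, the lists of interphase cyclins and kinases and of kinase inhibitors ranged more widely than the lists above. The 21 transcription factors of the cell cycle had a median ratio of 0.13. Mybl2, the B-Myb activator of G2 and M genes, was the highest of them at 1.96 (SE 0.34; limma adjusted p = 0.0644), with ratios of 1.29, 1.95 and 2.64, and the pocket protein Rbl1 the lowest at −0.86. Among 11 interphase cyclins and kinases the median was −0.20, with Ccne1, the cyclin of S phase entry, at 1.66 (SE 0.23; limma adjusted p = 0.0559) and Ccnd2, a D-type cyclin of G1, at −3.39 (SE 0.64; limma adjusted p = 0.0719). Of 7 kinase inhibitors 1 was called lower, where 0.0907% of all genes were. It was Cdkn1c, the p57 inhibitor of G1 kinases, at −3.12 (SE 0.28, limma adjusted p = 0.0417). The highest inhibitor was Cdkn2a at 0.93.

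**Figure D5:**
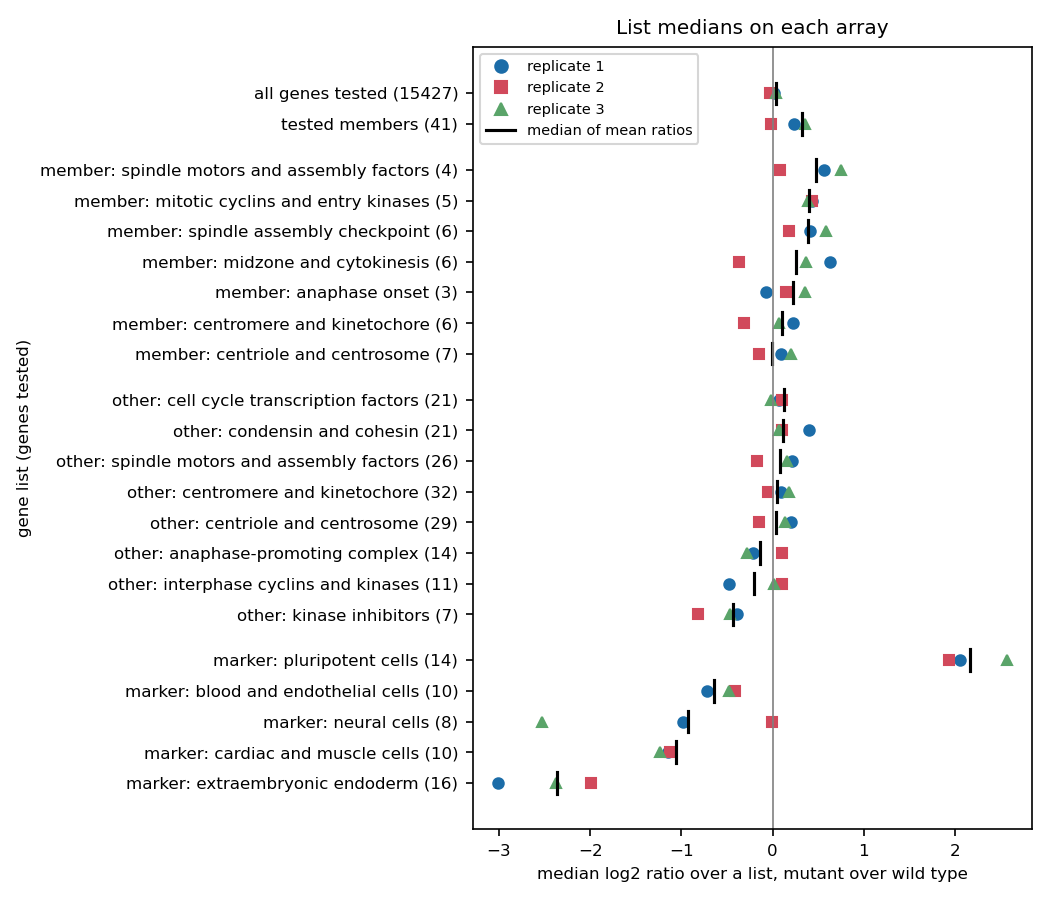
Median log2 ratio of mutant over wild type (horizontal axis) of each gene list (vertical axis, with the number of genes tested) on each array, with a black bar for the median of the genes' mean ratios. The lists of the mitotic genes under study lie between −0.37 and 0.75 on every array, while the pluripotent list lies at 1.93 or higher and the extraembryonic endoderm list at −1.99 or lower.

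Markers of cell types that an embryoid body can hold had list medians farther from 0 than the mitotic genes. The part of these markers' cell types in the values of the mitotic genes was not tested. Of all genes, 0.207% were called higher and 0.0907% lower, and 22.7% had an unadjusted limma p under 0.05. The 14 markers of pluripotent cells had a median ratio of 2.16, from Zfp42 at 3.17 to Klf4 at −1.14, and 2 were called higher (Zfp42 and Dppa5a). Their summed intensity was 200922 to 416843 units in the mutant and 59441 to 88368 in the wild type samples. The 16 markers of extraembryonic endoderm had a median of −2.37, from Apoa1 at −0.70 to Col4a1 at −4.43, with sums of 24014 to 168161 units in the mutant and 273266 to 703136 in the wild type samples, and 0 were called, although 14 had an unadjusted limma p under 0.05. The 8 neural markers tested had a median of −0.93 (Stmn2 0.24, Zic1 −5.41) and 0 calls, with 3 at an unadjusted limma p under 0.05, and sums of 4020 to 7076 units in the mutant and 4576 to 65569 in the wild type. Medians were −1.06 over 10 cardiac and muscle markers (Myh6 1.81, Myl3 −3.95, the latter called lower) and −0.65 over 10 blood and endothelial markers (Gata1 0.72, Hbb-bh1 −3.91, the latter called lower). Their sums were 7687 to 14539 against 14182 to 43662 units, and 2703 to 4942 against 10326 to 12897 units. Ptprc, Neurog2 and Pax6 were among the markers not well above background on all arrays of either genotype.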

How the data were processed

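RNA of 3 mutant and 3 wild type samples was read on 3 two-colour Agilent mouse arrays. The deposited scanner files give, per the file headers, 2 unprocessed intensities for each spot and dye (the spot's mean and the median of its surroundings). They also give a processed intensity, per the file headers corrected for background, spatial trend and dye, and other values, per the file headers, that are flags for dim, saturated and outlying spots. The authors' deposited value table holds log2 ratios, made with limma per the submitters' processing notes; its version and settings are not known here. Its columns for replicates 1 and 3 correlated more closely with each other's scanner values (r = 0.916 and 0.983) than with their own (0.771 and 0.842), so they were used only as a mean. The headers place the probes on mm9, and exons were not assigned.

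Analysis used R 4.3.3 and limma 3.58.1. The mean intensity was corrected with normexp (offset 50) and log2 ratios were normalized by loess within arrays, with weight 0 for 1377 control spots. Outlier spots (317, 364 and 438) and 7 spots of replicate 3 with a background over 10 times the array's median were left out. Spots were averaged by probe. A probe had to have a value on all 3 arrays. It also had to be well above background on each of them in the same genotype, mutant or wild type (19141 of 39429 passed). The brightest passing probe stood for its gene. The test of mean ratios against 0 used lmFit and eBayes over 15427 genes, with 2 residual and 3.04 prior degrees of freedom and Benjamini-Hochberg adjustment at 0.05. The number of arrays limits the precision. Per-sample intensities are log2 values after Aquantile scaling, and levels were not compared between probes. Symbols were matched to RefSeq for 67.9% of probes.

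The mitotic genes and the other lists were chosen with earlier results of these data known. Values in every sample are given for the 6 genes of smallest p, the extremes of each role group with at least 3 tested genes, and genes whose further probe differs in sign or by over 1 log2 unit. Ccnb1 and Mad1l1 were added after their values were seen. The alternatives were other background corrections, Agilent's processed intensities, the authors' values, median centring, scaling between arrays, other probe filters and summaries, a dye term, unpaired channels and leaving out each replicate.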

Additional observations from a re-analysis of the deposited data

How the results depend on the processing

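The mitotic genes had 0 calls in either direction under the main settings and under every alternative run but 2. With a dye term 2 were called higher and 0 lower, where 15.9% and 14.9% of all genes were. Without replicate 2, 12 were called higher and 2 lower, where 25.7% and 21.7% of all genes were. Leaving out each replicate in turn thus gave 0 to 12 higher and 0 to 2 lower. The median ratio of the mitotic genes, 0.32 in the main fit, ran from 0.21 to 0.29 over the fits without 1 replicate. It was 0.18 with normexp on all spots and 0.20 with the authors' values. With a dye term it was 0.21, where that of all genes was 0.023. With median centring it was 0.020, where that of all genes was −0.22. Each array is a mutant and wild type pair; an unpaired fit of the channels (no replicate block) called 178 genes higher and 96 lower over all genes, 0 of them mitotic.

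The mean ratio changed sign under at least 1 alternative in Kif11, Ccna2, Prc1, Pttg1, Birc5, Cep55, Mad1l1, Bub1b, Anln, Incenp, Plk4 and Cenpf. With median centring Kif11 was −0.16, Ccna2 −0.18, Prc1 −0.18, Pttg1 −0.24 and Birc5 −0.17. With the authors' values Prc1 was −0.08, Pttg1 −0.057 and Birc5 −0.01. With a dye term Pttg1 was −0.032 and Birc5 −0.038. Prc1 was −0.020 with Agilent's processed intensities, Pttg1 −0.11 with normexp on all spots and Cep55 −0.0040 with the mean over probes. Leaving out each replicate in turn, Ccna2 ran from −0.29 to 0.35, Prc1 from −0.15 to 0.18, Pttg1 from −0.18 to 0.16, Birc5 from −0.058 to 0.21 and Cep55 from −0.10 to 0.51. Of the others, Mad1l1 reached −0.0043, Bub1b −0.11 and Incenp −0.19 with median centring, Anln −0.25 without replicate 3, and Plk4 0.29 and Cenpf 0.028 without replicate 2. The cause was not tested for any of these. Fits with 2 arrays have 1 residual degree of freedom, and dye and genotype cannot be told apart without replicate 2.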
